A study of Mus musculus with 11 samples.

Results

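The first day of conversion of mouse embryonic stem (ES) cells to epiblast-like cells (EpiLC) was examined in 5 of 11 libraries of 5-hydroxymethylcytosine (5hmC). Members were taken from the labels alone, as the TET_WT ES cells at day 0 (replicates 1, 2 and 3) and the TET_WT EpiLC at day 1 (replicates 2 and 3). TET_WT is the wild-type parental line of a Tet1, Tet2 and Tet3 triple knock-out, and it is a single line. Day 0 cells were grown in 2i/Lif, the medium that holds ES cells in the naive state by blocking MEK and GSK3 in the presence of the cytokine LIF. Both groups therefore share the genotype and differ in the day of differentiation. The other libraries were TET_WT at day 2 (n = 3) and DNMT_WT, another wild-type line, at day 2 (n = 3). They served to estimate the spread between replicates and to place day 1 values beside day 2 of TET_WT. They also entered the mean signal by which tiles were filtered and the scaling in some alternative fits. The day 2 libraries of TET_WT ranked the tiles for the share of reads in the highest tiles. The labels do not say whether replicates were separate cultures, so p-values measure the spread between these libraries, which may be technical.

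5hmC is made when TET enzymes oxidise 5-methylcytosine, the mark that DNA methyltransferases place mostly at CG dinucleotides. It is an intermediate on one route of DNA demethylation and is found chiefly in gene bodies and at active enhancers, while CG-rich promoters usually hold little of it. On leaving 2i/Lif, naive cells take up methylation across the genome and pass through a formative state, which EpiLC model and in which naive genes such as Klf2 and Tbx3 are turned down and formative genes such as Fgf5 and Otx2 are turned up. A 5hmC level at a gene is not its expression, so the labelled cell types could not be checked against marker expression here.

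HMCP-seq captures DNA fragments that carry 5hmC and counts them after sequencing. The deposited table gives log2 RPKM (reads for each kilobase of a tile, divided by the depth of its library) in tiles of 2 kb. The gene level used below is log2(RPKM + 0.02) of the mean over the tiles of an annotated GRCm38 span with 2 kb added on either side. It is relative to the library, so a change in total 5hmC per cell is not visible, and fewer cells carrying 5hmC at a gene cannot be told apart from less 5hmC per cell. Day 0 libraries held 29831997 to 51604034 reads. Day 1 replicate 2 held 7342015 reads, the fewest of all 11, with a median of 2 reads per tile and 34.0% of tiles empty. Day 1 replicate 3 held 27484281 reads, with a median of 7 per tile. Day 0 replicate 2 stood apart from its group: after thinning all libraries to the same number of reads, 41.7% of its tiles were empty, against 29.9% and 27.7% in day 0 replicates 1 and 3 and 31.8% and 32.4% in the day 1 pair. What leaving out either library does to the calls is stated below.

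The sequences just upstream of 4 genes are shown because the called tiles of these genes, described below, did not include the tile that holds the start. They are the 250 bases before the annotated RefSeq start in GRCm38.p6, read 5′ to 3′ on the strand of the gene, with each CG dinucleotide in capitals. Elf3 lies on the minus strand and its window is chr1:135258473-135258722. The Mfap3l window is chr8:60632575-60632824, that of Lbh chr17:72918055-72918304 and that of Uox chr3:146596899-146597148, all on the plus strand.
Elf3: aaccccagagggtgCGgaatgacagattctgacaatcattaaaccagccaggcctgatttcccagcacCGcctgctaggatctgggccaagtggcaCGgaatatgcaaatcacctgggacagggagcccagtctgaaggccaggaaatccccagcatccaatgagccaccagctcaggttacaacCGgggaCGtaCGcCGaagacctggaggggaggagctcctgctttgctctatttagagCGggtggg
Mfap3l: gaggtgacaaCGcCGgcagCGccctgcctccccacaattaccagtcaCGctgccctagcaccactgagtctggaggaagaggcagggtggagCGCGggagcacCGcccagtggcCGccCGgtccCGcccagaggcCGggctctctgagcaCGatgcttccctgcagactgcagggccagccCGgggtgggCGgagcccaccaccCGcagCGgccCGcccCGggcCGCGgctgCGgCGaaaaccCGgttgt
Lbh: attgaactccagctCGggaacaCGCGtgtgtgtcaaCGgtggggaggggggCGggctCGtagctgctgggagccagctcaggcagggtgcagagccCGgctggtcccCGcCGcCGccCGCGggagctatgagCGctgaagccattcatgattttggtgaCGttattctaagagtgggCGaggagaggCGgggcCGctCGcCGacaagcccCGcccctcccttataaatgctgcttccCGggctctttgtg
Uox: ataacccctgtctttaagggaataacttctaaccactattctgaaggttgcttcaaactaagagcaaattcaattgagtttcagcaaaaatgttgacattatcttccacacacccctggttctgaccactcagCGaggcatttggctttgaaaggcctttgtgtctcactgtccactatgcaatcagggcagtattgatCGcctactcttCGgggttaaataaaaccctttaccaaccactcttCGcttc
These windows hold 8 CG in Elf3, 23 in Mfap3l, 21 in Lbh and 4 in Uox. Over 32585 annotated starts on chromosomes 1 to 19 and X, the median was 6 CG in such a window and the quartiles were 2 and 16, so Mfap3l and Lbh are CG-rich and Uox is not. The tile at the Mfap3l start held 9, 7 and 1 reads at day 0 but 0 and 1 at day 1. That of Elf3 held 4, 2 and 10 reads at day 0 and 0 and 4 at day 1. In Lbh it held 12, 4 and 30 reads at day 0 and 5 and 10 at day 1. The Uox start, poor in CG, held 114, 69 and 100 reads at day 0 and 10 and 45 at day 1. Its level, log2(RPKM + 0.2), was 1.47, 1.53 and 1.35 at day 0 and lower in both day 1 libraries, at 0.83 and 1.07 (difference -0.50, adjusted p = 0.561). The 4 genes were chosen because their start tile did not pass the tile test (limma, adjusted p from 0.537 in Lbh to 0.868 in Elf3). They therefore say nothing about starts in general. Further annotated starts of Mfap3l, inside the gene, are not shown. The promoter table used here has no entry for Tbx3 or Sox7.

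Among 20698 protein-coding genes, 377 (1.82%) passed the test between day 1 and day 0, 227 higher (1.1%) and 150 lower (0.725%). The test was limma on all 11 libraries, two-sided, with p adjusted by Benjamini-Hochberg and a threshold of 0.05, and passing it is what "called", "rose" and "fell" mean below. The naive gene Tbx3, the SOXF factor gene Sox7, Mfap3l and the kallikrein gene Klk1b16 rose and the urate oxidase gene Uox fell, and these 5 genes were also called when any 1 of the 5 libraries was left out. voom, which weighs each gene by its reads, called 182 genes (0.879%), 55 higher (0.266%) and 127 lower (0.614%). Of the 377 genes, 117 were called by voom as well (0.565%), 49 higher (0.237%) and 68 lower (0.329%). All 377 had the same sign under voom and in each of the 5 fits without 1 library. These fits use the reads on which the genes were called, so this is not independent support. Where the days do not overlap, leaving out 1 library cannot turn the sign. The median difference over all genes was 0.054. With the 5 libraries alone no gene was called by limma, while 1836 had an unadjusted p under 0.05, against 3842 in the fit of all 11. From the 8 TET_WT libraries limma called 10 genes. The number of calls thus also rested on the replicate spread of DNMT_WT, the other line.

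The number of calls rested on single libraries. It was 43 without day 0 replicate 1, 2780 without day 0 replicate 2, 207 without day 0 replicate 3, 6 without day 1 replicate 2 and 282 without day 1 replicate 3. Without day 1 replicate 2, the calls of all list members described below were lost other than those of Tbx3 and Sox7. Of the other genes named below, Mfap3l, Klk1b16 and Uox were still called without it. Without day 0 replicate 2, 10.3% of all genes were called higher and 3.11% lower, and counts within the lists without it are read against these shares. Higher genes made up 60.2% of the calls, but 30.2% under voom, 43.5% after centring each library on its median gene, 38.0% with TMM scaling, 49.0% after centring each chromosome and 76.9% without day 0 replicate 2. The balance of gains and losses thus differed with the scaling. Day 1 and day 0 libraries did not overlap in 5811 genes (28.1%), 3543 with day 1 higher (17.1%) and 2268 with day 1 lower (11%).

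**Figure D1:**
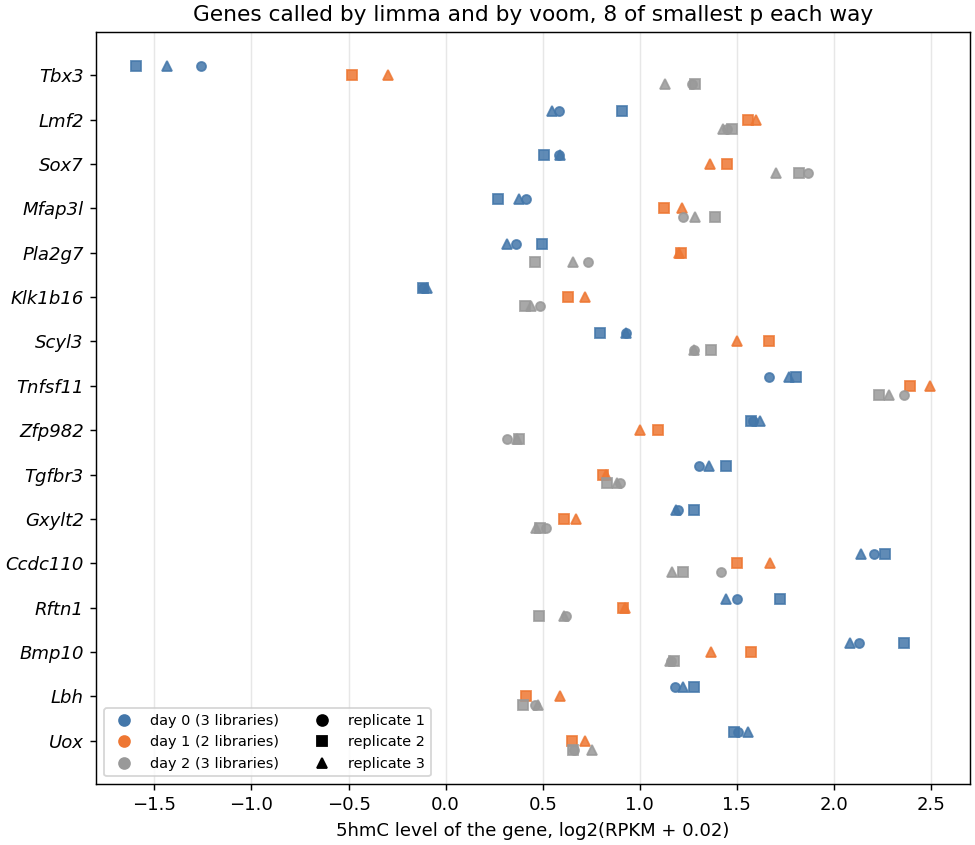
5hmC level, as log2(RPKM + 0.02), of the 16 named genes with the smallest limma p among those called by both limma and voom, 8 higher and 8 lower at day 1. Each symbol is 1 library, coloured by day and shaped by replicate number. Day 0 and day 1 symbols do not overlap in any of the 16 genes, which their choice by smallest p favours. Tbx3 rises by 1.04 while Uox falls by 0.83.

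Of 24 naive pluripotency genes, 3 rose, none fell and 21 did not pass, against 1.1% of all genes called higher. The median difference of the list was 0.16, against 0.054 over all genes, and 17 of its members had a positive value. The genes that rose were Tbx3, Klf2 and Zfp42, of which voom called Tbx3. The list gave 6 genes higher and 1 lower when day 0 replicate 2 was left out. The list was set with earlier results of these data known, so its direction is a description.

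Tbx3, a T-box factor of the naive network, had levels of -1.26, -1.59 and -1.43 in day 0 replicates 1, 2 and 3 and of -0.48 and -0.30 in day 1 replicates 2 and 3. Both day 1 libraries lay above all 3 day 0 libraries, as in 17.1% of all genes. The gene rose by 1.04 ± 0.11 (SE, limma adjusted p = 0.00361, voom adjusted p = 0.0183), and the difference ran from 0.95 to 1.13 when single libraries were left out. Its day 2 mean was 1.23, a further 1.62 above day 1 (adjusted p = 7.54e-05). Day 2 is set beside day 1 here and below as context, since the contrasts share libraries. The signal was uneven along Tbx3. The largest mean step lay outside its annotated span, at 2.52 RPKM, against at most 0.59 in any other tile. Most of the rise thus came from signal beside the annotated gene, within the added 2 kb. The tile chr5:119686001-119688000, just past the right end of the annotated span, held 2.65, 1.75 and 1.81 RPKM at day 0 and 3.64 and 5.54 at day 1 (difference 1.07, adjusted p = 0.000357), from 118, 45, 77, 23 and 131 reads. Of the 10 tiles of Tbx3, 2 were called, both higher, against 0.522% of all tiles called higher. The other called tile, chr5:119682001-119684000 inside the span, held 0, 2 and 8 reads at day 0 and 7 and 6 at day 1. The tiles of a gene make up its level, so here and below their signs and calls are no further support for a called gene.

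Klf2, a Krüppel-like factor of the naive state, had levels of -2.54, -2.22 and -2.08 at day 0 and -1.57 and -1.52 at day 1, and rose by 0.73 ± 0.16 (limma adjusted p = 0.0482). These levels rest on 27, 20 and 37 reads at day 0 and 8 and 31 at day 1, and the voom adjusted p was 0.512. The call was lost without day 0 replicate 1 (adjusted p = 0.096), without day 1 replicate 2 (0.19) and without day 1 replicate 3 (0.122). Zfp42, which encodes the naive marker REX1, had -0.71, -0.86 and -0.87 at day 0 and -0.15 and -0.47 at day 1, and rose by 0.50 ± 0.11 (limma adjusted p = 0.0446, voom 0.416). The Zfp42 call was lost without day 0 replicate 1 (adjusted p = 0.0658), day 0 replicate 3 (0.0869) or day 1 replicate 2 (0.283), and after centring each chromosome (0.0701). At day 2 these genes stood at levels of 0.64 to 0.93 in Klf2 and 0.76 to 0.83 in Zfp42, above every day 1 library. Nanog, a core naive factor, had -1.85, -0.87 and -0.98 at day 0 and -0.26 and -0.77 at day 1, a difference of 0.72 ± 0.26 that did not pass (adjusted p = 0.169). Within it the tile chr6:122712001-122714000 was called higher, with 13, 7 and 19 reads at day 0 and 13 and 25 at day 1, or 0.29, 0.27 and 0.45 RPKM against 2.06 and 1.06. The difference was 0.27 ± 0.10 in Esrrb, 0.17 ± 0.15 in Prdm14, 0.16 ± 0.14 in Dppa3 and 0.13 ± 0.12 in Klf4, none of which passed. When day 0 replicate 2 was left out, Esrrb (0.36, adjusted p = 0.0137) and Prdm14 (0.35, adjusted p = 0.0261) were called. The signs of Dppa3 and Klf4 turned without day 1 replicate 2. Fgf4 had the most negative value of the list, -1.10 ± 0.39 (adjusted p = 0.161), on 1 read in day 1 replicate 2.

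**Figure D2:**
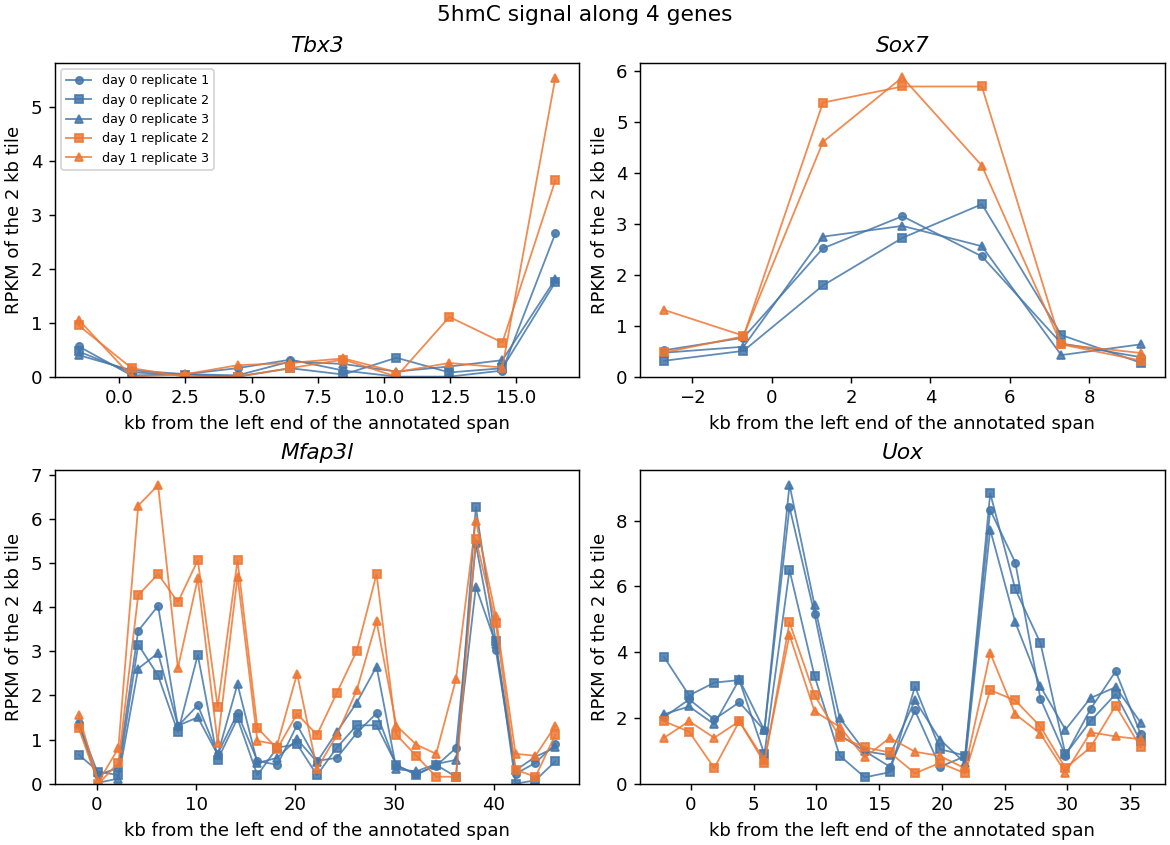
RPKM of each 2 kb tile against its distance in kb from the left end of the annotated span of Tbx3, Sox7, Mfap3l and Uox, with 1 line for each day 0 (blue) and day 1 (orange) library. The day 1 lines run above the day 0 lines just past the right end of the annotated span of Tbx3. They also do so in the middle of Sox7 and over much of Mfap3l. At the peaks of Uox they run below the day 0 lines.

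In core pluripotency, 1 of 10 genes rose and none fell, against 1.1% of all genes called higher, and 2 rose without day 0 replicate 2. Epcam, an epithelial adhesion molecule of ES cells, had levels of 1.32, 1.53 and 1.52 at day 0 and 1.95 and 1.85 at day 1, and rose by 0.45 ± 0.09 (limma adjusted p = 0.0374, voom 0.138). Epcam was called without day 0 replicate 2 (adjusted p = 0.0111) and not without any other of the 5 libraries (0.0572 to 0.225). Sall4, a zinc finger partner of OCT4, had 1.18, 1.34 and 1.14 at day 0 and 1.53 and 1.55 at day 1, a difference of 0.32 ± 0.09 that did not pass (adjusted p = 0.0846), but passed without day 0 replicate 2 (0.00864). Among 21 formative and primed genes, 1 rose, again against 1.1%, none fell, and the list's median was 0.20. Its values ran from -0.46 to 0.66. At an unadjusted limma p under 0.05 it held 12 genes. The naive list held 9 of 24 such genes, the core list 3 of 10 and all genes 3842 of 20698. These lists were set with earlier results of these data known, so the counts are descriptions. The formative gene that rose was Sall2, a zinc finger factor, with 0.05, 0.25 and 0.16 at day 0 and 0.76 and 0.59 at day 1 (0.52 ± 0.10, limma adjusted p = 0.0299, voom 0.146). Sall2 lies on chromosome 14, and after centring each chromosome its difference was 0.40 (adjusted p = 0.0939). Without day 0 replicate 1 or 3 the Sall2 call was lost (0.0703 and 0.0572). Pou3f1 and Otx2, factors that mark the formative state, each differed by 0.33 ± 0.11 and did not pass (limma adjusted p = 0.137 and 0.133). Their days did not overlap, with day 1 higher, as in 17.1% of all genes. With day 0 replicate 2 left out, 6 genes of this list rose. Fgf5, the classic EpiLC marker, had 0.09, 0.17 and 0.19 at day 0 and 0.00 and 0.38 at day 1, so the days overlapped. Fgf5 reached 0.61 to 0.68 at day 2.

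None of the 21 measured genes of the DNA methylation machinery was called by limma or by voom, and 5 had an unadjusted limma p under 0.05. Over all genes, 3842 of 20698 had such a p. Among the enzymes that oxidise 5-methylcytosine, Tet1 had 0.65, 0.56 and 0.65 at day 0 and 0.73 and 0.83 at day 1, a difference of 0.16 ± 0.08 (adjusted p = 0.281). Tet2 differed by 0.07 ± 0.14 and Tet3 by -0.17 ± 0.10, with overlapping days. Of the de novo methyltransferases, Dnmt3a differed by 0.10 ± 0.11 and Dnmt3b by 0.27 ± 0.11 (adjusted p = 0.703 and 0.206). Tdg, the glycosylase that removes oxidised cytosines, had 0.86, 0.95 and 0.84 at day 0 and 1.17 and 1.25 at day 1 (0.33 ± 0.08, adjusted p = 0.0709). Smug1, another base-excision glycosylase, differed by 0.57 ± 0.14 (adjusted p = 0.0689). With day 0 replicate 2 left out, limma called 6 of the 21 genes higher, among them Dnmt3a (0.24, adjusted p = 0.0203), Dnmt3b (0.38, 0.0157), Tdg (0.36, 0.0185) and Smug1 (0.73, 0.00461), against 10.3% of all genes. Without any other of the 5 libraries none of the 21 was called.

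EpiLC conversion usually withdraws LIF and the 2i inhibitors and adds FGF and activin, so the receptors, kinases and targets of these pathways were described as lists. Of 28 FGF and ERK genes, limma and voom each called none, with 9 at an unadjusted limma p under 0.05 and a median of 0.14. The unadjusted counts of these lists are read against 3842 of all 20698 genes. Mapk3, which encodes the kinase ERK1, had 2.45, 2.77 and 2.43 at day 0 and 2.00 and 2.14 at day 1 (-0.48 ± 0.12, adjusted p = 0.072). Etv4, a transcriptional target of ERK, went the other way, from 0.76, 0.81 and 0.54 to 1.05 and 1.32 (0.49 ± 0.12, adjusted p = 0.072). In both genes the days did not overlap, as in 28.1% of all genes. Of 20 Nodal and activin genes, none was called by limma or voom, 3 had an unadjusted limma p under 0.05, and the median was 0.053. The Nodal antagonist Lefty1 had the value 0.42 ± 0.11 (adjusted p = 0.0846). The 12 LIF and JAK-STAT genes gave no call by limma or voom, and 2 were below 0.05 unadjusted in limma, Jak1 and Jak2. These receptor-bound kinases differed by 0.19 ± 0.08 and 0.25 ± 0.11. Without day 0 replicate 2, limma called 5 FGF and ERK genes higher and 1 lower, 3 Nodal and activin genes higher and 1 lower, and 1 LIF and JAK-STAT gene higher. Etv4 (0.54, adjusted p = 0.0308), Lefty1 (0.44, 0.0374) and Mapk3 (-0.37, 0.0373) were among these.

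Of 24 Wnt genes, limma called 3 higher, against 1.1% of all genes, and none lower, with a median of 0.042, and voom called none. Without day 0 replicate 2 limma called 6 higher. The receptor gene Fzd10 had -1.47, -1.11 and -1.19 at day 0 and -0.09 and -0.18 at day 1, on 29 reads in day 1 replicate 2, and rose by 1.12 ± 0.14 (limma adjusted p = 0.00848, voom 0.0747). With 20 kb added on either side in place of 2 kb, the value of Fzd10 was -0.29. The ligand genes Wnt8a and Wnt5a rose by 0.46 ± 0.10 and 0.52 ± 0.12 (limma adjusted p = 0.0374 and 0.0482). Wnt5a was named after its value was seen. Both ligand genes kept their call when day 0 replicate 2 was left out and lost it without each of the other 4 libraries. The Wnt5a call was also lost after centring each chromosome (limma adjusted p = 0.0888). Sp5, a direct Wnt target, had the most negative value of the list, -0.48 ± 0.23, and did not pass.

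**Figure D3:**
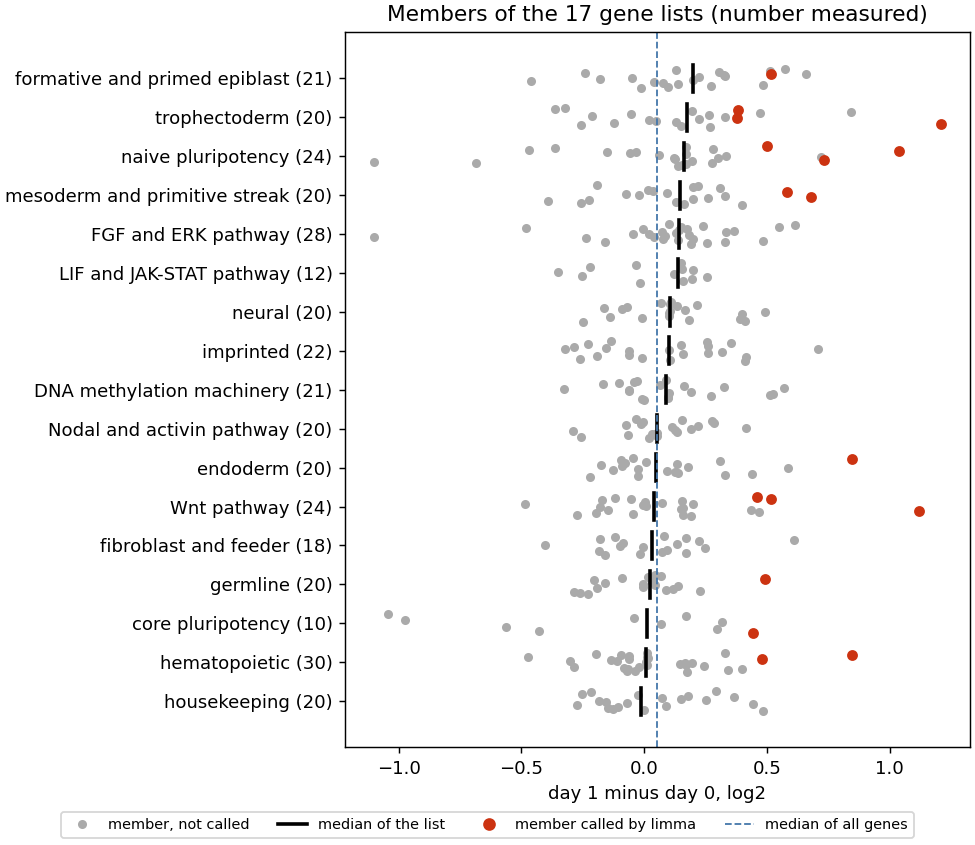
Difference between day 1 and day 0 (log2) for the members of 17 gene lists, with the number measured in parentheses; each point is 1 gene, red where limma called it. Black bars are list medians, from -0.013 to 0.20, and the dashed line is the median of all genes, 0.054; all called members lie to the right of 0.

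Of 30 hematopoietic genes, 2 rose, against 1.1% of all genes called higher, and none fell, with a median of 0.0087 against 0.054 over all genes. Both were called by voom as well, against 0.237% of all genes called higher by both tests. This became 6 risen and 1 fallen without day 0 replicate 2. Sox7, which encodes a SOXF factor of primitive endoderm and of blood and vessel precursors, had levels of 0.58, 0.51 and 0.59 at day 0 and of 1.45 and 1.36 at day 1. Sox7 rose by 0.85 ± 0.08 (limma adjusted p = 0.00282, voom 0.0102). It had the smallest limma p of all genes tested, and its difference ran from 0.80 to 0.89 when single libraries were left out. The tiles chr14:63944001-63946000 and chr14:63946001-63948000 were called, the second from 3.15, 2.72 and 2.96 RPKM at day 0 to 5.70 and 5.87 at day 1. Sox7 lies on chromosome 14, and after centring each chromosome its difference was 0.73 (adjusted p = 0.00488). Meis1, which encodes a HOX cofactor of blood stem cells, had 0.37, 0.19 and 0.33 at day 0 and 0.84 and 0.72 at day 1, on 804 reads in the shallowest library. It rose by 0.48 ± 0.08 (limma adjusted p = 0.0219, voom 0.0169), but was not called without day 0 replicate 1 (adjusted p = 0.0504) or without day 1 replicate 2 (0.146). Tal1, a master factor of blood formation, had 0.33 ± 0.10 and Runx1 -0.06 ± 0.07, neither of which passed. Nfe2, an erythroid and megakaryocyte factor, had -0.47 ± 0.18 with overlapping days. When day 0 replicate 2 was left out, Tal1 (0.37, adjusted p = 0.0358) and Nfe2 (-0.66, 0.0168) were called.

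The counts for other lineages are read against the same 1.1% of all genes called higher. Sox7 was also the 1 gene of 20 endoderm genes that rose. Of 20 mesoderm and primitive streak genes, Mesp2 (0.58 ± 0.11) and Gsc (0.68 ± 0.13) rose, with limma adjusted p of 0.0269 and 0.0305, while voom called neither. Gsc, an organiser homeobox gene, rested on 35 reads in day 1 replicate 2, and its value turned to -0.15 with 20 kb on either side. Of 20 trophectoderm genes, Elf3, Gcm1 and Tfap2a rose. Gcm1, a factor of labyrinth trophoblast, had 1.14, 1.08 and 1.19 at day 0 and 1.51 and 1.52 at day 1 (0.38 ± 0.07, limma adjusted p = 0.0289). Tfap2a, named after its value was seen, rose by 0.38 ± 0.07. The Tfap2a call was lost after centring each chromosome (limma adjusted p = 0.106) and without day 0 replicate 3 (0.0663). Neither Gcm1 nor Tfap2a was called by voom (adjusted p = 0.159 and 0.169). Gsc, Gcm1 and Tfap2a were not called without day 0 replicate 1 (adjusted p = 0.0514, 0.066 and 0.0726) or without day 1 replicate 3 (0.0964, 0.0841 and 0.0816). Mesp2 was not called without day 0 replicate 1 (0.0524) or 3 (0.0572). Among 20 germline genes the meiotic axis gene Sycp3 was the 1 that rose, by 0.49 ± 0.11, and voom did not call it. Sycp3 kept its call when day 0 replicate 2 was left out but lost it without each of the other 4 libraries (adjusted p from 0.0572 to 0.178). Centring each chromosome also removed the call (limma adjusted p = 0.0527). In each of the endoderm, mesoderm and trophectoderm lists 7 genes rose when day 0 replicate 2 was left out, and 1 rose and 1 fell in the germline list. Of 20 neural, 22 imprinted, 18 fibroblast and 20 housekeeping genes, limma and voom called none. At an unadjusted limma p under 0.05 these lists held 4, 8, 2 and 1 genes, against 3842 of all 20698. These lists had 4, 4, 1 and 2 genes called higher without day 0 replicate 2, and the imprinted and fibroblast lists each had 1 called lower. The fibroblast list was included because feeder cells can accompany ES cultures, and its median was 0.034.

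Outside the lists, further genes were chosen after their values were seen, as those of smallest limma p among genes called by limma and voom. Elf3, an epithelial ETS factor that also stands in the trophectoderm list, had levels of -0.08, -0.58 and -0.51 at day 0 and of 1.05 and 0.58 at day 1. It rose by 1.21 ± 0.15 (limma adjusted p = 0.00848, voom 0.0229), and at day 2 it stood between 2.24 and 2.28. Of its 6 tiles, 3 were called higher, against 0.522% of all tiles. The tile with the largest step in RPKM, chr1:135254001-135256000, held 2.14, 1.95 and 2.09 RPKM at day 0 and 6.33 and 3.55 at day 1, while the start tile beside the sequence shown above held at most 10 reads in these libraries. On the log2 scale that tile differed by 1.13, less than its called neighbours chr1:135252001-135254000 (2.04, adjusted p = 9.64e-09) and chr1:135256001-135258000 (1.57, adjusted p = 9.65e-05). Without day 1 replicate 2, Elf3 was no longer called (difference 0.98, adjusted p = 0.0768).

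Mfap3l, which encodes a microfibril-associated membrane protein, had 0.41, 0.27 and 0.38 at day 0 and 1.13 and 1.22 at day 1. It rose by 0.82 ± 0.08 (limma adjusted p = 0.00282, voom 0.00142). Of its 25 tiles, 23 had a positive difference and 5 were called, against 0.522% of all tiles called higher. Its CG-rich start, shown above, held few reads on both days. Klk1b16, of the tissue kallikrein family, had -0.12, -0.12 and -0.10 at day 0 and 0.63 and 0.72 at day 1 (0.79 ± 0.08, limma adjusted p = 0.00361). Its family holds near-identical copies side by side, so reads could have been placed in the wrong copy. Tnfsf11, which encodes the cytokine RANKL, had 1.66, 1.81 and 1.77 at day 0 and 2.39 and 2.49 at day 1 (0.70 ± 0.08, limma adjusted p = 0.00626). Lmf2, of the lipase maturation factor family, rose by 0.90 ± 0.10, and Scyl3, which encodes a pseudokinase, by 0.70 ± 0.08. Steap2, a metalloreductase gene among the largest gains, rose by 0.90 ± 0.16, and its call was also lost without day 0 replicate 1 (adjusted p = 0.0514) or day 1 replicate 3 (0.0774).

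Pla2g7, which encodes the secreted phospholipase that inactivates platelet-activating factor, was high at day 1. Its level was 0.36, 0.49 and 0.32 at day 0, 1.21 and 1.20 at day 1 and 0.73, 0.46 and 0.66 at day 2. Pla2g7 rose by 0.81 ± 0.10 on the first day (limma adjusted p = 0.00677, voom 0.00322) and was 0.59 lower at day 2 than at day 1. The second contrast reuses the day 1 values by which the gene was chosen, so it cannot test a return. Without day 1 replicate 2 the first-day difference was the same size, 0.81, with an adjusted p of 0.0654.

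Among the genes that fell, Uox, which encodes the urate oxidase of purine breakdown, had levels of 1.51, 1.48 and 1.56 at day 0 and of 0.65 and 0.72 at day 1. Uox differed by -0.83 ± 0.08 between the days (limma adjusted p = 0.00282, voom 0.00142). At day 2 it stood at 0.66, 0.65 and 0.75, a mean 0.0038 above that of day 1. In its tile chr3:146620001-146622000 the signal was 8.32, 8.83 and 7.73 RPKM at day 0 and 2.85 and 3.97 at day 1, from 370, 227, 329, 18 and 94 reads. Of the 20 tiles of Uox, 17 had a negative difference and 4 were called lower, against 0.45% of all tiles called lower. Lbh, a transcription cofactor gene of limb bud and heart, had 1.18, 1.28 and 1.22 at day 0 and 0.41 and 0.59 at day 1 (-0.73 ± 0.08, limma adjusted p = 0.00626, voom 0.00771). In Lbh 2 tiles were called lower, the stronger at chr17:72934001-72936000, from 5.60, 7.86 and 5.78 RPKM to 2.69 and 2.20, far from the CG-rich start shown above.

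Bmp10, a BMP ligand gene of the heart, had 2.13, 2.36 and 2.09 at day 0 and 1.57 and 1.37 at day 1 (-0.72 ± 0.09, limma adjusted p = 0.0107). Tgfbr3, which encodes the TGF-beta co-receptor betaglycan, had 1.30, 1.44 and 1.36 at day 0 and 0.81 and 0.82 at day 1 over 94 tiles (-0.55 ± 0.07, limma adjusted p = 0.0107). Gxylt2, which encodes a xylosyltransferase that extends sugars on Notch, had -0.58 ± 0.07, and Rftn1, the gene of the lipid raft protein raftlin, -0.64 ± 0.09 over 102 tiles. Ccdc110 fell by 0.62. Zfp982, a zinc finger gene with close copies on chromosome 4, had 1.58, 1.58 and 1.62 at day 0 and 0.31 to 0.38 at day 2, and fell by 0.55 on the first day. Lbh, Bmp10, Tgfbr3, Gxylt2, Rftn1, Ccdc110 and Zfp982 all lay lower in both day 1 libraries than in any day 0 library, as did 11% of all genes. Their choice by smallest p favours such genes, so this is no further support. Bmp10 and Gxylt2 lie on chromosome 6, and after centring each chromosome their differences were -0.64 and -0.50 (adjusted p = 0.0168 and 0.0172).

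Of the 12 largest gains and 12 largest losses of called genes, all but Steap2 held fewer reads in day 1 replicate 2 than the median of 107 over all genes. Steap2 held 151 there and 649 in day 1 replicate 3, Elf3 78 and 210, and Tbx3 44 and 188, while the losing gene Shbg held 437, 321 and 405 at day 0. Prss1, a trypsinogen gene of a family with close copies, held 12, 9 and 13 reads at day 0 and 9 and 22 at day 1, and rose by 1.62 ± 0.36. Hba-a1 and Hbq1b, neighbouring globin genes whose extended spans overlap, rose by 1.58 ± 0.25 and 1.28 ± 0.22 on 12 and 19 reads in day 1 replicate 2, and Hba-a1 has a near-identical copy. The other large gains were Lratd1, Fzd10, Kcne1l, Ifi207, Fam162b and Hspb1, from 0.92 to 1.29, besides Elf3, Tbx3 and Steap2. Of these 12 genes, voom called Elf3, Tbx3 and Steap2. The largest losses were Mocs3 (36, 22 and 25 reads at day 0, 0 and 4 at day 1, -2.54 ± 0.42) and Rpp25 (36, 20 and 33 against 0 and 7, -2.54 ± 0.53). The others were Bex3, Ier2, Btg1c, Pvrig, Ddi1, Scp2d1, Zfp772, Ptma, Shbg and Trpd52l3, from -1.88 to -0.98. Day 1 replicate 2 held 0 to 50 reads in these 12 genes, and voom called none of them. Mocs3 and Rpp25 were higher at day 2 than at day 1 by 3.12 and 4.16. This contrast reuses the day 1 values by which they were picked as losses, so it cannot test a recovery.

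**Figure D4:**
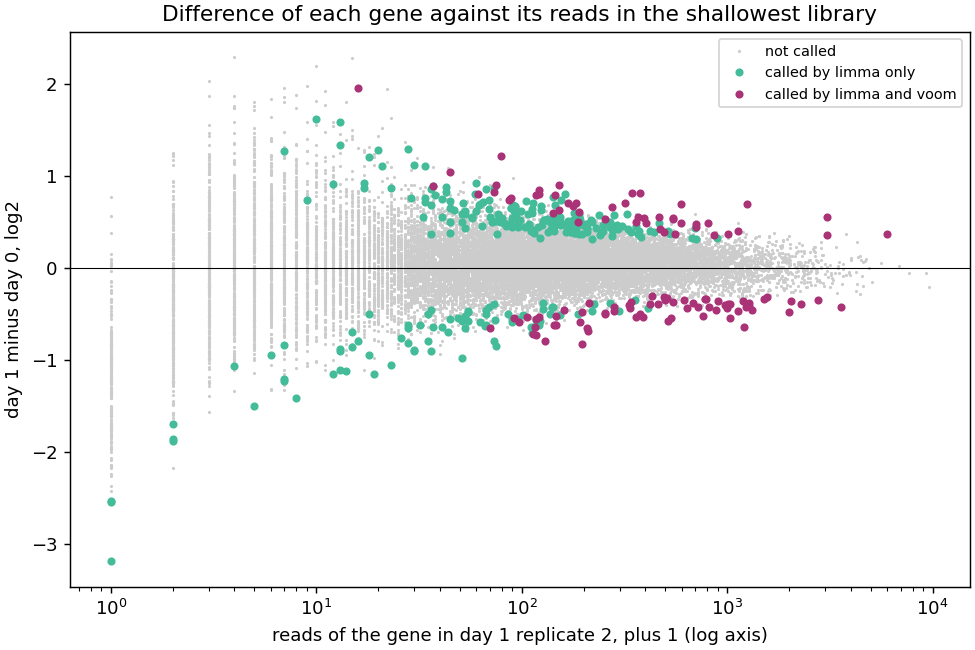
Difference of each of 20698 genes between day 1 and day 0 (log2) against its reads in day 1 replicate 2, the shallowest library, on a log axis after adding 1. Genes called by limma only (green) include those of few reads and large differences, while genes called by limma and voom (purple) lie mostly above 20 reads, with differences up to 1.95.

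Tiles and windows gave the same comparison without genes. Of 1183890 tiles, limma called 11506 (0.972%), 6181 higher (0.522%) and 5325 lower (0.45%), on log2(RPKM + 0.2). The tile of largest gain, chr3:61246001-61248000 outside annotated genes, held 3, 1 and 1 reads at day 0 and 11 and 21 at day 1. That of largest loss, chr13:96192001-96194000, also outside genes, held 40, 42 and 49 reads at day 0 and 0 and 2 at day 1. When all libraries were thinned to equal depth, limma called no tile (94037 with an unadjusted p under 0.05, against 146397). Tiles were not tested with voom. In windows of 20 kb, 3494 of 124157 were called (2.81%), 1722 higher (1.39%) and 1772 lower (1.43%). voom called 367 windows (0.296%), 143 higher (0.115%) and 224 lower (0.18%), and both tests called 141 higher (0.114%) and 222 lower (0.179%). A window inside Anks1b, chr10:90800001-90820000, had -1.08, -1.40 and -1.28 at day 0 and 0.15 and 0.26 at day 1. A window at Sgk1, the serum- and glucocorticoid-regulated kinase gene, chr10:21980001-22000000, had -2.51, -2.87 and -2.28 at day 0 and -1.38 and -0.91 at day 1. The window chr3:133420001-133440000, with no annotated gene, had 0.29, -0.20 and 0.32 at day 0 and -1.32 and -1.28 at day 1. These 3 windows were chosen after their values were seen.

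The share of reads on several chromosomes did not overlap between the days, in a design that cannot reach a p under 0.05. Chromosome 6 held 6.39%, 6.21% and 6.37% of the reads at day 0 and 5.89% and 5.88% at day 1. Chromosome 14 held 5.43%, 5.11% and 5.45% at day 0 and 5.66% and 5.65% at day 1, and chromosome 1 held 6.52%, 6.14% and 6.53% against 6.72% and 6.70%. Days did not overlap on chromosomes 1, 2, 6, 9, 14, 15 and 16, though on chromosome 2 the difference turned from -0.26 to 0.0994 percentage points when only tested tiles were counted. Each of these had an exact permutation p of 0.2 (two-sided, 0.571 after adjustment over 20 chromosomes), the smallest that 2 against 3 libraries allow. On chromosome 6, 44.2% of 7260 windows had a positive difference, with 44 called higher and 224 lower. On chromosome 14 this was 67.6% of 5740 windows, with 129 higher and 31 lower. The other chromosomes ran from 51.0% positive (chromosome 13) to 64.2% (chromosome 1). Over all 124157 windows, 1.39% were called higher and 1.43% lower. Of the 68 genes that fell under both limma and voom, 12 lay on chromosome 6 and none on chromosome 1, while of the 49 that rose, none lay on chromosome 6, 10 on chromosome 1 and 6 on chromosome 14. Chromosome 6 held 1090 of the 20698 genes tested, or 5.27%, chromosome 1 5.71% and chromosome 14 3.68%. Whether the shift of a chromosome takes part in the call of a gene on it was not tested beyond the centred values given above. On chromosome X the day 0 libraries differed widely, at 1.31%, 1.06% and 1.33%, with replicate 2 the low one, and day 1 held 1.28% and 1.26%.

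**Figure D5:**
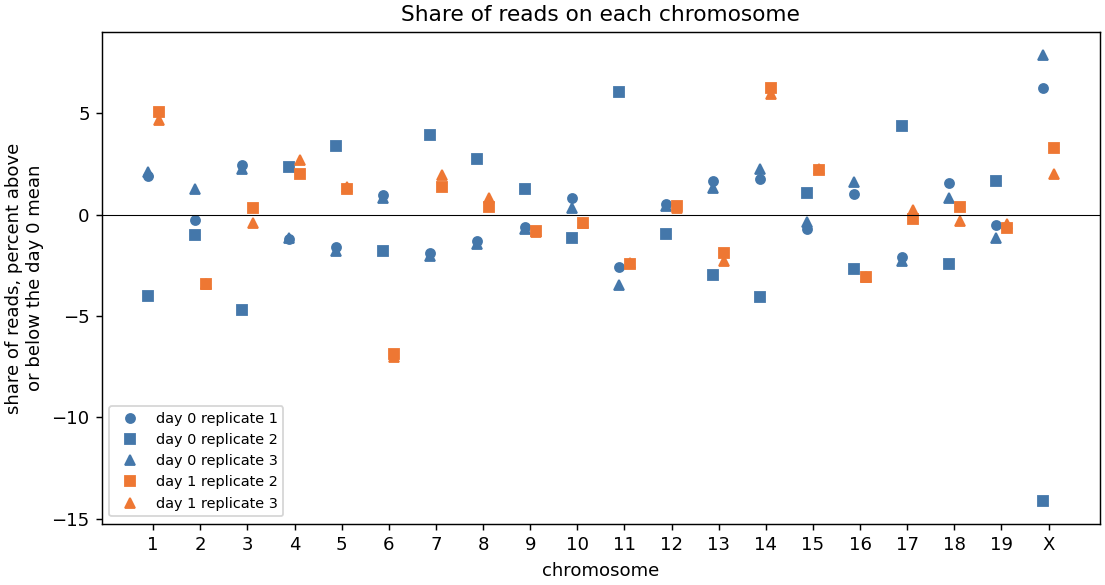
Share of reads on each chromosome in each day 0 (blue) and day 1 (orange) library, as percent above or below the mean of the day 0 libraries. Both day 1 libraries lie about 7 percent below the day 0 mean on chromosome 6 and about 6 percent above it on chromosome 14, while day 0 replicate 2 (squares) departs from its group on several chromosomes, most on X.

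The spread of reads over broad classes of the genome differed little after a day. Tiles of protein-coding genes held 60.7%, 62.4% and 60.5% of the reads at day 0 and 61.9% and 62.0% at day 1 (exact permutation p = 0.6, two-sided). Tiles with an annotated start held 2.61%, 2.88% and 2.60% at day 0 and 2.73% and 2.76% at day 1 (exact p = 0.8), and 3.29% on average at day 2. Tiles of other annotated genes only, such as long non-coding RNAs and pseudogenes, held 10.7%, 10.8% and 10.7% at day 0 and 10.5% in both day 1 libraries, with no overlap (exact p = 0.2). The 1% of tiles with the highest signal at day 2 held 9.48%, 11.3% and 9.57% of reads thinned to equal depth at day 0 and 10.4% in both day 1 libraries (exact p = 0.8). In the start-site and highest-tile shares, both day 1 libraries lay between day 0 replicate 2 and the other two.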

How the data were processed

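HMCP-seq was run on 11 libraries, of which 5 were compared. Build GRCm38 is listed among the submitters' processing notes, as are Bowtie2 2.4.1, cutadapt 2.3 and Trim Galore 0.6.5. The authors deposited log2 RPKM values for 1362779 tiles, each 2 kb long; how reads were counted is not given in the sources used here. Whole reads were recovered from the steps between values (100% within 0.1% of a whole number); empty tiles held the value of 0.9 reads, and totals were about 2.32 times the RPKM denominator, for a reason not known. Empty tiles were set to 0, since the deposited floor rises as depth falls. Only tiles of chromosomes 1 to 19 and X entered. The lowest 10% and highest 0.1% by mean signal over all 11 libraries were removed (1183890 left). A gene (RefSeq span plus 2 kb, GRCm38.p6, at least 3 tiles; 20698 of 21631) took log2(mean RPKM + 0.02), tiles log2(RPKM + 0.2), and 20 kb windows of at least 5 tiles log2(RPKM + 0.02).

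All 11 libraries entered one limma 3.58.1 fit (R 4.3.3, eBayes with variance trend), since day 1 has 2 libraries; Benjamini-Hochberg adjusted p under 0.05, two-sided. limma's voom on recovered reads with TMM was an alternative. Shares were compared with exact permutation tests over 10 splits. The procedure was tested on simulated data. Named genes were the 12 largest gains and 12 largest losses among called genes whose days do not overlap, without predicted and receptor-family genes; from each list the 2 of smallest p and the largest of opposite sign; fixed markers; and, chosen after the data were seen, the 8 of smallest p each way called by limma and voom. Members and lists were chosen with earlier results of these data known. Oct6, Dnmt3c, H19, Kcnq1ot1 and Meg3 had no measured protein-coding span under those names. Alternatives covered scaling, weights, thinning, filters, pseudocounts, spans, libraries fitted and each library left out. Python 3.11.15 (pandas 2.3.3) was used besides. Values of some genes that the rule names are not reported here.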

Additional observations from a re-analysis of the deposited data

How the results depend on the processing

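The number of calls moved with the depth, the libraries fitted and the weights. Against 377 called genes, 0 were called by limma from the mean of deposited log2 values (2591 at an unadjusted p under 0.05), 182 by voom, 1694 with array weights (78.3% higher), 23 at equal depth, 1363 after quantile normalization, 809 with 20 kb spans, 0 from the 5 libraries, 10 from the 8 TET_WT libraries (80% higher), 106 without the variance trend, and 6 to 2780 without single libraries. The highest of these came without day 0 replicate 2 and the lowest without day 1 replicate 2. Alternatives added after seeing the data gave 117 by limma and voom, and 2188 by both without day 0 replicate 2. Median centring, TMM, both pseudocounts, at least 10 tiles, no tile filter, stronger tiles, spans without extension, at least 100 reads and chromosome centring gave 321 to 492.

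A replicate block gave 48 called genes, 2555 windows and 8685 tiles. The labels do not say that a number marks a shared culture, and same-numbered day 0 and day 1 libraries did not deviate together (r = -0.0127 for number 2 and -0.000465 for number 3, across genes, which are not independent replicates).

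Against 3494 called windows there were 1500 of 100 kb, 367 by voom (39.0% higher, against 49.3%), 896 at equal depth, 1188 after median centring (29.3% higher), 1140 after chromosome centring (32.1% higher; added after seeing the data) and 351 to 8603 without single libraries, lowest without day 1 replicate 2 and highest without day 0 replicate 2. Against 11506 called tiles there were 0 at equal depth, 0 without the variance trend (132037 at an unadjusted p under 0.05), 4210 after median centring, 819 without the tile filter (68.0% higher, against 53.7%) and 1893 to 34548 without single libraries, lowest without day 1 replicate 2 and highest without day 1 replicate 3.

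Values of genes that were not called, and of a few that were, turned sign; the cause was not tested. From the mean of deposited log2 values Dazl was 0.36. With voom Dppa3 was -0.055, Klf4 -0.011 and Tet2 -0.042; with array weights Tet2 was -0.053; at equal depth Klf4 was -0.21; with TMM Fgf5 was -0.015. Without extension Dazl was 0.27, Klf4 -0.38 and Rps18 -0.19. With 20 kb spans Dppa3 was -0.11, Foxd3 0.23, Fzd10 -0.29, Gsc -0.15, Ier2 0.12, Klf4 -0.16, Pim1 0.028 and Tet2 -0.049. Without single libraries Tet2 ran from -0.078 to 0.16, Dppa3 from -0.11 to 0.42, Klf4 from -0.037 to 0.29, Fgf5 from -0.15 to 0.23 and Pim1 from -0.83 to 0.13. The share of reads on chromosome 2 differed by 0.0994 percentage points in tested tiles only (-0.26 in all). Without single libraries that on chromosome X ran from -0.0545 to 0.0817, that of start tiles from -0.000752 to 0.142 and that of the highest tiles from -0.012 to 0.913.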
